A study of Arabidopsis thaliana with 12 samples.

Results

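The genes of the Calvin cycle and photorespiration were followed as a set of 34 Arabidopsis thaliana genes, listed by identifier, with earlier results of these data known, among the 33602 gene identifiers of a deposited count table. The set holds 4 Rubisco small subunit genes, Rubisco activase, 13 Calvin cycle enzymes, 2 CP12 genes, 12 photorespiratory enzymes and 2 carbonic anhydrases. Of these 34 genes, 33 passed a filter on low counts and were tested among 20736 genes, and the phosphoglycolate phosphatase gene PGLP1 did not pass.

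RNA of whole seedlings was sequenced in 4 groups of 3 biological replicates. The groups were wild type (the Col-0 accession) without bacteria, wild type with volatiles of GB03, gp1-2 without bacteria and gp1-2 with volatiles of GB03, all harvested at 7 days. The line gp1-2 is a single SAIL insertion line, and GB03 is a Bacillus strain to which seedlings were exposed for 2 days after a move to Y plates at 5 days. The labels name only GB03 treatment, and it is called volatiles here because such plates keep bacteria and seedlings in separate compartments. Seedlings of all 4 groups grew at 22 °C in 16 h of light on a medium that contained 1% sucrose. The series title names a stearoyl-ACP desaturase and the labels name no locus for the line, so the insertion was not checked against a transcript here.

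Rubisco joins CO2 to ribulose 1,5-bisphosphate in the chloroplast, and its small subunits are made from a nuclear family of RBCS genes. Calvin cycle enzymes reduce the product to triose phosphate and rebuild the acceptor, while the small protein CP12 binds glyceraldehyde-3-phosphate dehydrogenase and phosphoribulokinase in the dark. When Rubisco takes oxygen in place of CO2, photorespiratory enzymes of the chloroplast, peroxisome and mitochondrion return the resulting phosphoglycolate to the cycle. Many of these genes are highly transcribed in green tissue, and their transcripts are known to depend on light, sugar, plastid state and time of day.

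The RBCS promoters are shown because the members of this family spanned the widest range of genotype differences of any role without bacteria, from -0.62 to -2.04 on the log2 scale. Each is the stretch of 250 bases directly before the annotated gene start, read 5′ to 3′ on the strand of the gene from RefSeq assembly TAIR10.1. Annotated exons cover 1894 bases in RBCS1B, 1410 in RBCS3B, 1268 in RBCS1A and 935 in RBCS2B, for coding sequences of 543 to 561 bases. The windows therefore need not lie at like distances from the coding sequence. Motifs inside the annotated genes were not searched, so a window without a motif does not show that the promoter lacks it. Capitals mark the G-box (CACGTG) and the I-box (GATAAG, or CTTATC on the other strand), motifs known from light-regulated plant promoters. HCEF1, the chloroplast fructose-1,6-bisphosphatase gene, is added as the other member with both motifs. The windows lie at chr5:15382072-15382321 (minus strand) for RBCS2B, chr5:15378643-15378892 (minus strand) for RBCS3B, chr5:15385321-15385570 (minus strand) for RBCS1B, chr1:25049668-25049917 (minus strand) for RBCS1A and chr3:20016587-20016836 (plus strand) for HCEF1.
RBCS2B: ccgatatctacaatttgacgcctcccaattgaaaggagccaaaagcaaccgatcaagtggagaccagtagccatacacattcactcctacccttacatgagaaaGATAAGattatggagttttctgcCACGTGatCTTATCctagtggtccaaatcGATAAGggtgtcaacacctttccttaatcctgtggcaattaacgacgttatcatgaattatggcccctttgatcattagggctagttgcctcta
RBCS3B: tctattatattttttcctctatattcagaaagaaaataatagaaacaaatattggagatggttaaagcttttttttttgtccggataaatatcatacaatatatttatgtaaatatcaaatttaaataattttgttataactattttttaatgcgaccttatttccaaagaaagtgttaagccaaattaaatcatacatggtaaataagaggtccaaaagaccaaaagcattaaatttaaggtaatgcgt
RBCS1B: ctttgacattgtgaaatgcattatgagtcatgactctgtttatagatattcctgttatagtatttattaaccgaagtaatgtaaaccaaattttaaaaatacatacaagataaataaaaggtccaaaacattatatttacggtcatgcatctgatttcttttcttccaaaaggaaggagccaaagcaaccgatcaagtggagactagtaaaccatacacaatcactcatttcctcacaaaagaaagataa
RBCS1A: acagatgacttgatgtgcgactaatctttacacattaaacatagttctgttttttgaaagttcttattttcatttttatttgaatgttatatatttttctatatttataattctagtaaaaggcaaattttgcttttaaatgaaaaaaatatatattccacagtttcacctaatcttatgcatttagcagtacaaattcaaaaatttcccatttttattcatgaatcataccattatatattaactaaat
HCEF1: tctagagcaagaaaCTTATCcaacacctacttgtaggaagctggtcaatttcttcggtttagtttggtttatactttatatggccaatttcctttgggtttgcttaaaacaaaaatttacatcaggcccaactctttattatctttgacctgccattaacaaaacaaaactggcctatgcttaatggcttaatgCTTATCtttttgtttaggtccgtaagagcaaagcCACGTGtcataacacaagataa
A G-box was present in 5 of the 34 member windows (14.7%) and in 6.5% of the windows of 27443 genes, and the members with it were RBCS2B, PRK, HCEF1, GGT1 and GLDP1. An I-box was present in 5 member windows (14.7%) and in 12.3% of all windows, namely those of RBCS2B, RCA, HCEF1, CP12-2 and GLDP2. The W-box core (TTGAC, either strand) stood in 16 member windows (47.1%) against 44.9% of all, and the evening element (AAAATATCT, either strand) in none of the members against 2.4% of all. These matches describe letters in the windows and were not tested as binding sites.

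Total counts ran from 11158051 to 25214934 per library, and every gp1-2 library was deeper than every wild-type library. Replicate 3 stood apart from replicates 1 and 2 in each group by the chi-square statistic across genes, divided by its degrees of freedom. It was 9.62 to 15.9 in pairs with replicate 3 and 2.62 to 8.37 between replicates 1 and 2. In untreated wild type the margin was small, with 8.37 for replicates 1 and 2 and 9.62 for replicates 2 and 3. The statistic was not adjusted for the depth of the libraries compared. All 16 root markers and all 11 shoot markers examined had reads in every library.

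Taken as a share of all reads, the members held 5.45%, 5.28% and 5.74% in the 3 untreated wild-type libraries and 3.99%, 4.00% and 4.29% in wild type with volatiles. In gp1-2 they held 3.57%, 3.66% and 3.40% without bacteria and 2.03%, 2.01% and 2.25% with volatiles. The 4 groups did not overlap, and both the line and the volatiles went with a lower share. Photorespiratory enzymes alone held 1.13% ± 0.0496 (SD, n = 3) of reads in untreated wild type and 0.429% ± 0.0116 in gp1-2 with volatiles. In bulk samples, fewer green cells and less of these RNAs per cell cannot be told apart.

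Per kilobase of annotated exon, the levels in untreated wild type spanned a wide range. RBCS1A led with a normalised read count (CPM) of 8533 per kilobase, followed by RBCS3B with 3511, RBCS2B with 2871 and RCA with 2048. The length covers all annotated exons of a gene and may exceed that of the transcripts present, so the order depends on it. Before division by length, RCA stood above RBCS2B, with mean CPM of 4304 and 2685. RBCS1B with 190.0, the P-protein gene GLDP2 with 101 and the glycerate kinase gene AT1G80380 with 83.0 were the least abundant of the 33 genes. CPM here use library sizes scaled by the trimmed mean of M values (TMM).

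**Figure D1:**
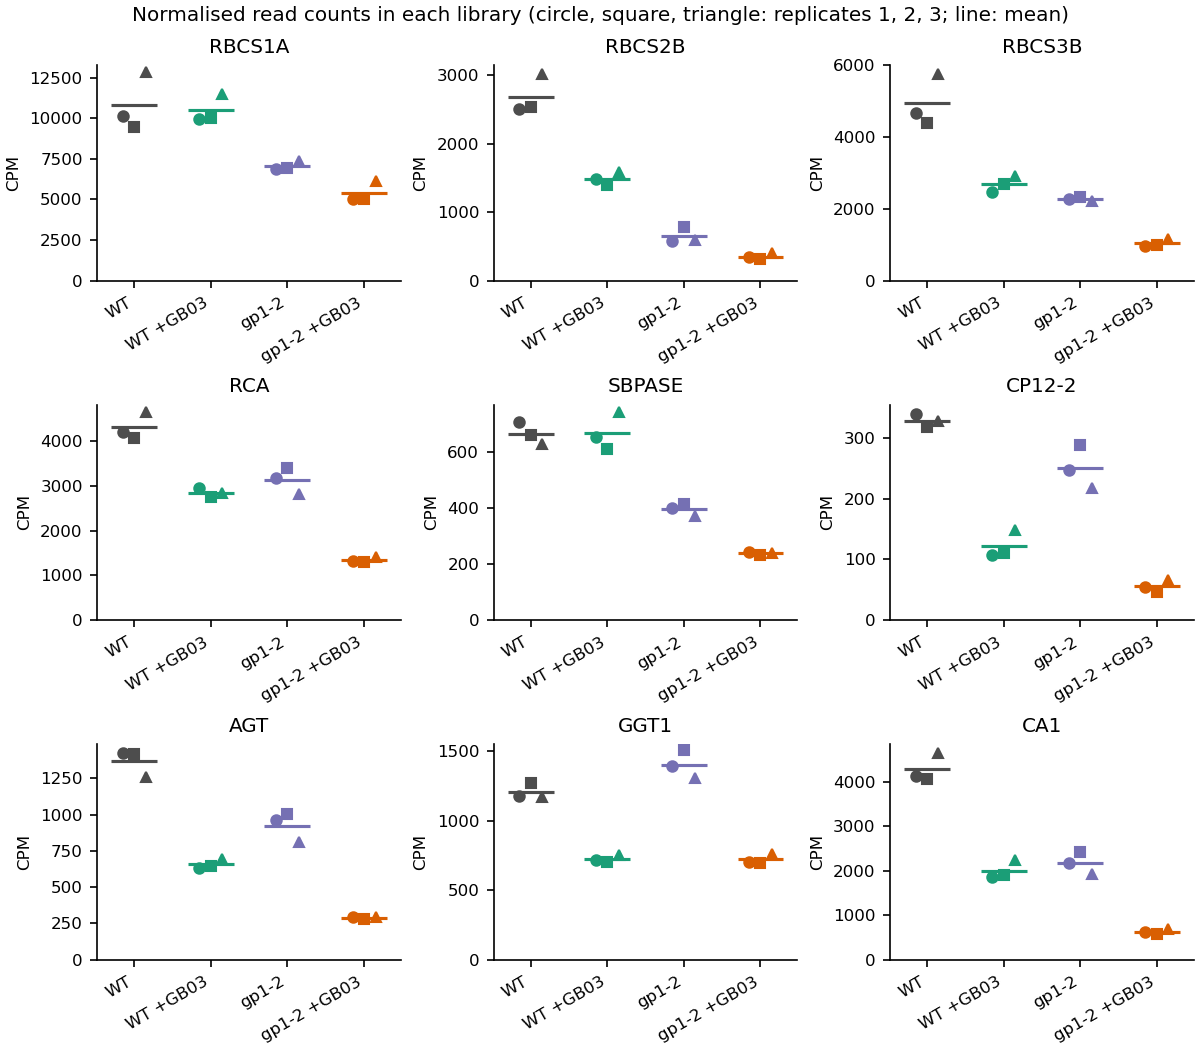
Normalised read counts (CPM, linear axes from 0) of 9 members in each of the 12 libraries, with circle, square and triangle for replicates 1, 2 and 3 and a line at the group mean; WT is wild type and +GB03 marks volatiles. RBCS2B lay between 2508 and 3014 CPM in untreated wild type and between 313 and 404 CPM in gp1-2 with volatiles, while GGT1 was higher in all 3 untreated gp1-2 libraries than in untreated wild type.

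A gene was called where its adjusted p in edgeR's quasi-likelihood test was under 0.05. With GB03 volatiles, 21 of the 33 tested members were called lower in wild type and none higher, where 15.3% of all tested genes were called lower. In gp1-2, 31 were called lower and none higher, where 17.6% of all tested genes were called lower. The median log2 fold change of the members was -0.45 in wild type and -0.75 in gp1-2, and that of all tested genes was 0.00 and -0.00. These counts give 21 members lower in both genotypes, where 10.6% of all tested genes were, and 10 lower in gp1-2 and not called in wild type, where 6.93% of all tested genes were. The 2 left, RBCS1B and TIM, were called in neither, like 56.5% of all tested genes. Among all tested genes, 14.8% were called higher with volatiles in wild type and 14.7% in gp1-2. Whether the response itself differed between the genotypes is given by the interaction further on.

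Between genotypes without bacteria, 29 members were called lower in gp1-2, where 17.2% of all tested genes were. The remaining call was higher, that of GGT1, where 20.0% of all tested genes were called higher. With volatiles, 31 were called lower in gp1-2, where 23.3% of all tested genes were, and none higher. The member medians were -0.58 and -0.97, against -0.02 and -0.04 over all tested genes. The genotype and volatile comparisons share libraries in pairs, so their member values are given side by side and not as independent results. In all, 17 members were called lower in each of these 4 comparisons, as were 2.86% of all tested genes.

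**Figure D2:**
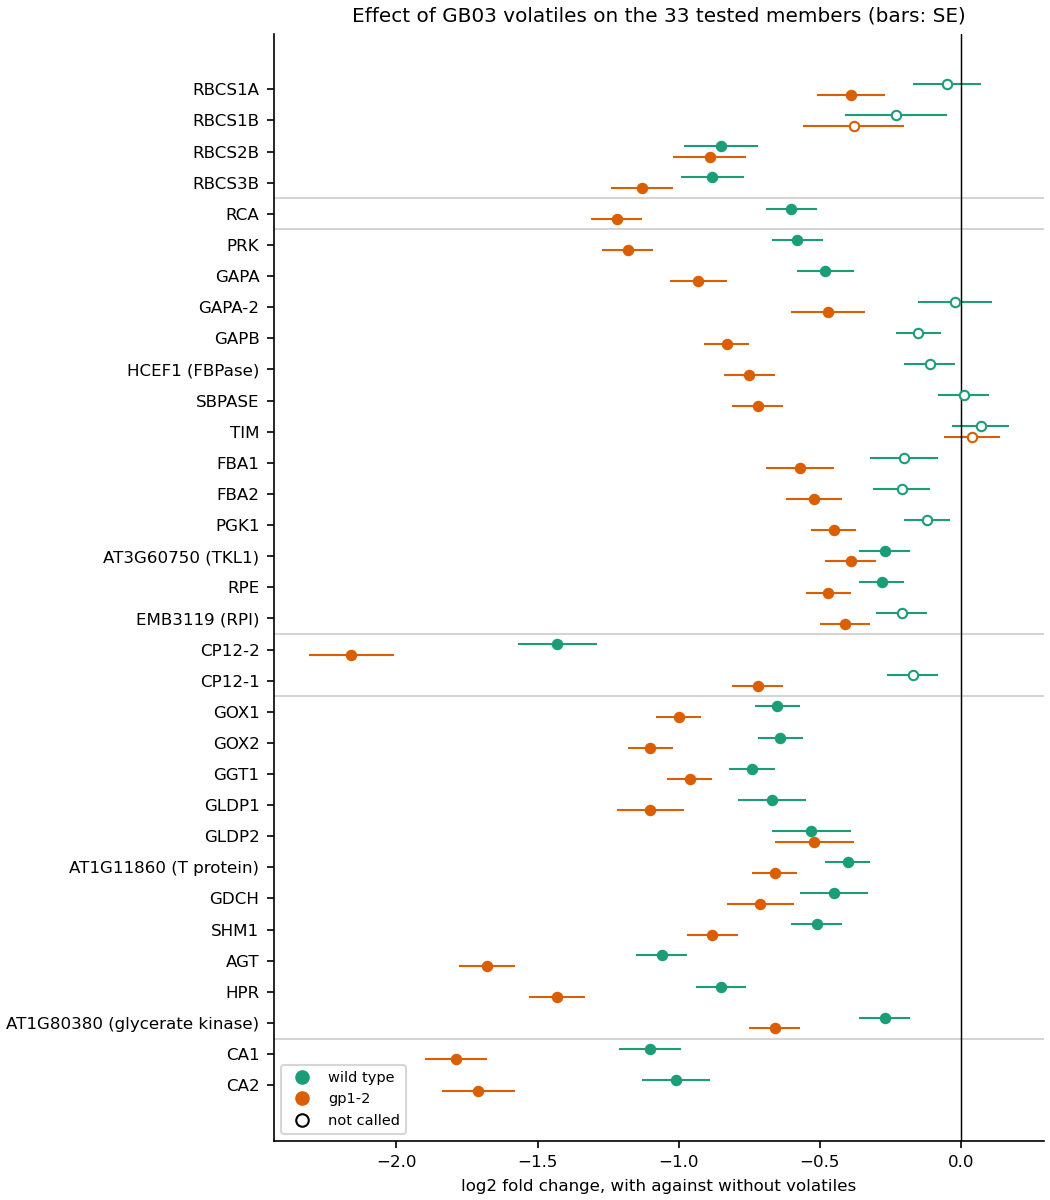
Log2 fold change with against without GB03 volatiles (x axis) for the 33 tested members in order of role, in wild type and in gp1-2, with standard errors as bars and open symbols for values not called. The photorespiratory enzymes lie below 0 in both genotypes, and most Calvin cycle enzymes lie near 0 in wild type and lower in gp1-2.

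Among the Rubisco small subunit genes, RBCS2B (AT5G38420) fell most in gp1-2, and RBCS1A (AT1G67090), the most abundant, fell least without bacteria. RBCS2B stood at 2508, 2532 and 3014 CPM in untreated wild type, at 1480.4, 1404 and 1594 with volatiles, at 576, 782 and 598 in untreated gp1-2 and at 338, 313 and 404 in gp1-2 with volatiles. None of these 4 groups overlapped. Without bacteria it was 4.12-fold lower in gp1-2 (log2 -2.04 ± 0.13 SE, edgeR adjusted p = 6.6e-09), and with volatiles 4.24-fold lower (-2.09 ± 0.13). Volatiles lowered it to 55.6% of the untreated level in wild type and to 53.9% in gp1-2. The difference between those responses was -0.04 ± 0.18 on the log2 scale.

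RBCS3B (AT5G38410) was at 4682, 4406 and 5765 CPM in untreated wild type, 2481, 2692 and 2914 with volatiles, 2283, 2327 and 2208 in untreated gp1-2 and 958, 984 and 1163 in gp1-2 with volatiles. It fell with volatiles to 54.4% in wild type (-0.88 ± 0.11) and to 45.6% in gp1-2 (-1.13 ± 0.11), and in both its groups were apart. RBCS1A was at 10133, 9461 and 12868 CPM in untreated wild type and at 9972, 10025 and 11460.4 with volatiles. These groups overlapped, and the change of -0.05 ± 0.12 was not called. In gp1-2 it was at 6898, 6913 and 7376 CPM without bacteria and at 5017, 5033 and 6151 with volatiles. These groups did not overlap, and the fall of -0.39 ± 0.12 was called with edgeR at an adjusted p of 0.0208. That call ended on omitting untreated gp1-2 replicate 3 or gp1-2 volatiles replicate 1 or 2, at adjusted p of 0.0555 to 0.0865.

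RBCS1B (AT5G38430), by far the least abundant of the family, was at 369.5, 312 and 398 CPM in untreated wild type, 283, 293 and 347 with volatiles, 197, 210.2 and 207 in untreated gp1-2 and 136, 117 and 219 in gp1-2 with volatiles. The third of these gp1-2 libraries with volatiles was above all 3 untreated ones. Its change with volatiles was not called in wild type (-0.23 ± 0.18) or gp1-2 (-0.38 ± 0.18), but the latter was called with the replicate block (-0.42, edgeR adjusted p = 0.02) and without gp1-2 volatiles replicate 3 (-0.69, edgeR adjusted p = 0.00105). RBCS1B and RBCS2B share 97.3% of their aligned coding bases, RBCS1B and RBCS3B share 94.1% with an identical run of 230 bases, and RBCS1A shares 87.7% to 90.1% with the others. How reads that fit several copies were counted is not given in the sources used here, so the division of reads among the 3 RBCS genes of chromosome 5 is uncertain.

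RCA (AT2G39730), the activase that clears inhibitors from Rubisco active sites, was at 4197, 4073 and 4641 CPM in untreated wild type and 2939.5, 2758 and 2837 with volatiles. In gp1-2 it was at 3173, 3407 and 2809.6 CPM without bacteria and 1310.0, 1299 and 1415 with volatiles. Within each genotype the treated and untreated libraries were apart, as were the genotypes within each treatment. The fall with volatiles was -0.60 ± 0.09 in wild type and -1.22 ± 0.09 in gp1-2, to 66.1% and 42.9% of the untreated level.

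Of the 13 Calvin cycle enzymes, 4 were called lower with volatiles in wild type and 12 in gp1-2, where 15.3% and 17.6% of all tested genes were. The difference between these responses was called for 4 (GAPB, SBPASE, HCEF1 and PRK), each below 0, where 1.32% of all tested genes were called in that direction. The 4 lower in wild type were PRK (phosphoribulokinase, -0.58 ± 0.09), GAPA (a glyceraldehyde-3-phosphate dehydrogenase subunit, -0.48 ± 0.10), RPE (ribulose-phosphate epimerase, -0.28 ± 0.08) and the transketolase gene AT3G60750 (-0.27 ± 0.09). The median of the 13 was -0.20. The RPE call was lost without wild-type volatiles replicate 2 (edgeR adjusted p of 0.059). That of AT3G60750 ended on omitting replicate 3 of untreated wild type or replicate 3 of wild type with volatiles (edgeR adjusted p of 0.0595 and 0.0809), and when only the wild-type libraries were fitted (0.0589).

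In gp1-2, 12 of the 13 Calvin cycle enzymes were called lower with volatiles, with a median of -0.52. The exception was the plastid triose-phosphate isomerase gene TIM, at 298 ± 9.68 CPM (SD, n = 3) without bacteria and 306 ± 14 with volatiles. The aldolases FBA1 (-0.57 ± 0.12) and FBA2 (-0.52 ± 0.10), the phosphoglycerate kinase PGK1 (-0.45 ± 0.08), the ribose-5-phosphate isomerase EMB3119 (-0.41 ± 0.09) and GAPA-2 (-0.47 ± 0.13) were called here. None of these 5 was called in wild type or for the difference between the responses (edgeR adjusted p of 0.176 to 0.542). In wild type EMB3119 was called with the replicate block (edgeR adjusted p = 0.0349) and without wild-type volatiles replicate 3 (-0.30, 0.0213). The GAPA-2 call was lost without gp1-2 volatiles replicate 1 or 2, with edgeR adjusted p of 0.0585 and 0.067.

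Between genotypes, HCEF1 (AT3G54050) was the lowest Calvin cycle gene with volatiles and RPE (AT5G61410) the highest. HCEF1 was at 657, 625 and 697 CPM in untreated wild type, 590.1, 577 and 672 with volatiles, 343, 379 and 335 in untreated gp1-2 and 206, 193 and 227 in gp1-2 with volatiles. Its wild-type groups overlapped, while each gp1-2 group lay below both of them. In gp1-2 it was 1.87-fold lower without bacteria (-0.90 ± 0.09) and 2.94-fold lower with volatiles (-1.55 ± 0.09, edgeR adjusted p = 2.4e-09).

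RPE was at 506, 491 and 493 CPM in untreated wild type and 432, 436 and 432 in untreated gp1-2, groups that did not overlap. The difference of -0.20 ± 0.08 missed the threshold in edgeR's test (adjusted p = 0.0645), and passed it with the replicate number as a block (-0.20, adjusted p = 0.0336). It also passed with DESeq2 (-0.21, adjusted p = 0.0169) and with upper-quartile scaling (-0.29, edgeR adjusted p = 0.0134). The same held without gp1-2 volatiles replicate 3 (edgeR adjusted p = 0.0469) and with replicates 1 and 2 only (0.0248). With volatiles RPE was at 402, 389.5 and 431 CPM in wild type and 298, 301 and 339.6 in gp1-2, a called difference of -0.38 ± 0.08. The other 12 Calvin cycle enzymes were called lower in gp1-2 in both treatments, with volatiles by -0.48 (TIM) to -1.55 (HCEF1). GAPA-2 was the lowest of them without bacteria, at 870.0 ± 76.7 CPM in wild type and 421 ± 19.8 in gp1-2.

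**Figure D3:**
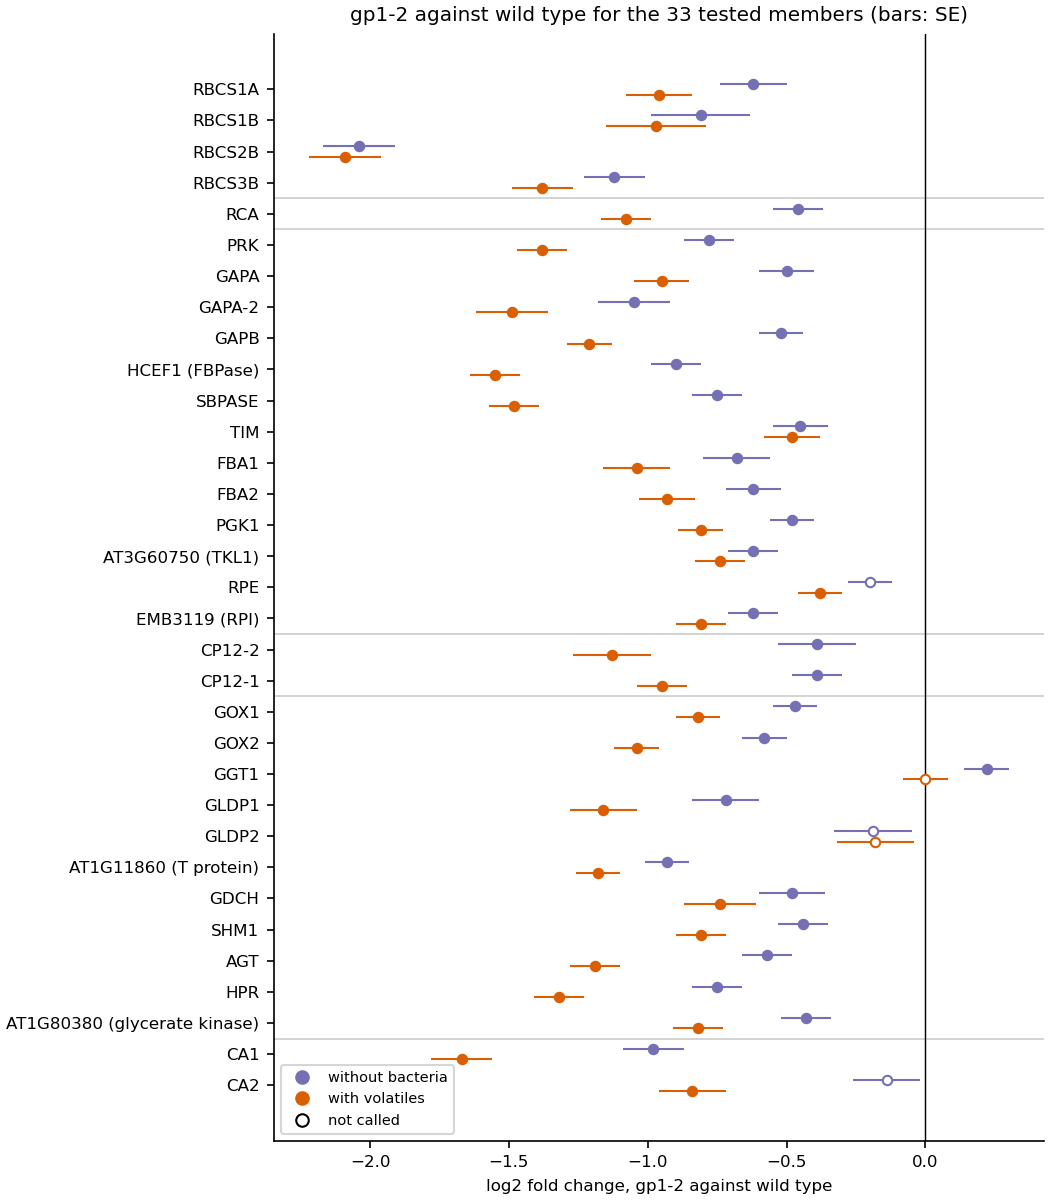
Log2 fold change of gp1-2 against wild type (x axis) for the 33 tested members, without bacteria and with volatiles, with standard errors as bars and open symbols for values not called. RBCS2B stands lowest at -2.04 and -2.09, and GGT1 lies at 0.22 and -0.00.

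The CP12 genes moved by unequal amounts. CP12-2 (AT3G62410) was at 340.3, 318 and 329 CPM in untreated wild type, 107, 111 and 149 with volatiles, 247, 288 and 217 in untreated gp1-2 and 55.3, 47.1 and 65.4 in gp1-2 with volatiles. All 4 groups were apart, and the fall with volatiles was to 37.1% in wild type (-1.43 ± 0.14) and 22.3% in gp1-2 (-2.16 ± 0.15), the lowest of all members in each. CP12-1 (AT2G47400) was at 629.6, 618 and 628 CPM in untreated wild type, 524, 517 and 630.1 with volatiles, 474, 482 and 474 in untreated gp1-2 and 316, 269 and 281 in gp1-2 with volatiles. Its wild-type groups overlapped through replicate 3 with volatiles, and the change of -0.17 ± 0.09 was not called. Without that library it was -0.26 with an edgeR adjusted p of 0.0352, and in gp1-2 the fall of -0.72 ± 0.09 was called. Without bacteria both were -0.39 lower in gp1-2, and the CP12-2 call (edgeR adjusted p = 0.0377) was lost on leaving out any 1 of 6 libraries: each untreated wild-type replicate, untreated gp1-2 replicate 1 or 3, or gp1-2 volatiles replicate 1 (0.0503 to 0.15).

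The photorespiratory enzymes fell as a group with volatiles in both genotypes. All 11 that were tested were called lower in wild type, where 15.3% of all tested genes were. The 11 values ran from -0.27 for the glycerate kinase AT1G80380 to -1.06 for AGT, with a median of -0.64. All 11 were also called lower in gp1-2, where 17.6% of all tested genes were. There the values ran from -0.52 for GLDP2 to -1.68 for AGT, with a median of -0.96. All treated libraries were below all untreated ones for each of the 11 in both genotypes, which held for 20.9% of all tested genes in wild type and 24.7% in gp1-2. In wild type 2 of these calls depended on single libraries. The H-protein gene GDCH lost its call without wild-type volatiles replicate 1 or 2 (edgeR adjusted p of 0.0532 and 0.0674). AT1G80380 lost it on omitting replicate 2 of untreated wild type or wild-type volatiles replicate 1 or 2 (edgeR adjusted p of 0.0674 to 0.101), and under upper-quartile scaling (0.0568).

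AGT (AT2G13360), the peroxisomal serine:glyoxylate aminotransferase, was at 1427, 1416 and 1259 CPM in untreated wild type and 631, 645 and 696 with volatiles. In gp1-2 it was at 961, 1002 and 808 CPM without bacteria and 294, 279.8 and 291 with volatiles. No groups overlapped, and volatiles took it to 48.1% in wild type and 31.2% in gp1-2. HPR (AT1G68010), the peroxisomal hydroxypyruvate reductase that acts on the product of AGT, was at 642, 640.4 and 612 CPM in untreated wild type, 349, 345 and 353 with volatiles, 389, 416 and 324 in untreated gp1-2 and 138, 131 and 149 in gp1-2 with volatiles. Wild type with volatiles and untreated gp1-2 covered overlapping ranges, and the other groups were apart. HPR was the lowest photorespiratory gene between genotypes with volatiles, at -1.32 ± 0.09.

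GGT1 (AT1G23310), the peroxisomal glutamate:glyoxylate aminotransferase, departed from the others between genotypes. It was at 1178, 1268 and 1170.4 CPM in untreated wild type and 1394, 1509.8 and 1306 in untreated gp1-2, and at 715, 704 and 751 CPM with volatiles in wild type and 703, 699 and 763 in gp1-2. Without bacteria every gp1-2 library was above every wild-type library, whereas with volatiles the genotypes overlapped. The rise of 0.22 ± 0.08 without bacteria was just called (edgeR adjusted p = 0.0474) and was lost under 5 other ways of scaling, filtering or fitting, in 1 of 2 random thinnings of the counts, and on leaving out any 1 of 8 libraries (0.057 to 0.199): untreated wild-type replicate 1 or 3, wild-type volatiles replicate 1 or 2, or replicate 1 or 2 of either gp1-2 group. With volatiles the difference was -0.00 ± 0.08, and the volatiles themselves lowered GGT1 by -0.74 ± 0.08 in wild type and -0.96 ± 0.08 in gp1-2.

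The glycolate oxidases GOX1 and GOX2, which make glyoxylate in the peroxisome, fell together with volatiles, to 63.5% and 64.1% of the untreated level in wild type and to 50% and 46.6% in gp1-2. In the mitochondrial glycine decarboxylase system, the T-protein gene AT1G11860 was the lowest in gp1-2 without bacteria, at 1410.0 ± 29.6 CPM in wild type and 741 ± 25.7 in gp1-2 (-0.93 ± 0.08). GDCH was -0.48 ± 0.12 lower there, the P-protein gene GLDP1 -0.72 ± 0.12 and SHM1, the mitochondrial serine hydroxymethyltransferase, -0.44 ± 0.09. The second P-protein gene GLDP2 was not called between genotypes, at -0.19 ± 0.14 without bacteria and -0.18 ± 0.14 with volatiles. Without wild-type volatiles replicate 3 the latter was -0.35 with an edgeR adjusted p of 0.0192.

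PGLP1 (AT5G36700), the phosphatase that opens the photorespiratory pathway, had between 0 and 3 counts in each of the 12 libraries. Its annotated coding sequence of 1089 bases is identical to that of the neighbouring entry AT5G36790. That entry had 711, 44 and 29 counts in untreated wild type, 598, 724 and 52 with volatiles, 628, 1449 and 176 in untreated gp1-2 and 186, 591 and 230 in gp1-2 with volatiles. Counts that differ this much among replicates allow no statement on phosphoglycolate phosphatase, and reads that fit both copies may not have been counted.

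The carbonic anhydrases, which interconvert CO2 and bicarbonate, fell strongly with volatiles. CA1 (AT3G01500) was at 4119, 4069 and 4636 CPM in untreated wild type, 1853, 1895 and 2229 with volatiles, 2160.1, 2424 and 1921 in untreated gp1-2 and 614, 575 and 688 in gp1-2 with volatiles. Wild type with volatiles and untreated gp1-2 covered overlapping ranges, and gp1-2 with volatiles was below all others. The fall was to 46.6% in wild type (-1.10 ± 0.11) and 28.9% in gp1-2 (-1.79 ± 0.11). CA2 (AT5G14740) was at 828, 1049 and 1009.9 CPM in untreated wild type, 431, 462 and 540.5 with volatiles, 852, 958 and 811 in untreated gp1-2 and 255, 238 and 308 in gp1-2 with volatiles. Its untreated groups overlapped and the difference of -0.14 ± 0.12 was not called, while with volatiles gp1-2 was lower by -0.84 ± 0.12.

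The interaction tested directly whether the lines responded differently, as the log2 response of gp1-2 to volatiles less the wild-type response. It was called for 10 of the 33 tested members, all with a larger fall in gp1-2, where 1.32% of all tested genes were called in that direction. The member median was -0.37, against -0.02 over all tested genes, and 32 of 33 values were below 0. Of the 10 members, 6 (RCA, PRK, AGT, HPR, CA1 and CA2) were called lower with volatiles in both genotypes, and 4 (GAPB, HCEF1, SBPASE and CP12-1) in gp1-2 alone. With all libraries, none of the 4 RBCS genes was called by edgeR, DESeq2 or limma-voom, 0 had an unadjusted edgeR p under 0.05, and their values ran from -0.34 to -0.04.

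The smallest adjusted p belonged to GAPB (AT1G42970), the B subunit of the dehydrogenase. It was at 1714, 1665 and 1852 CPM in untreated wild type, 1549, 1502 and 1659.9 with volatiles, 1229.7, 1261 and 1149.7 in untreated gp1-2 and 695, 682 and 665 in gp1-2 with volatiles. In wild type the groups were narrowly apart and the change of -0.15 ± 0.08 was not called, in gp1-2 it fell by -0.83 ± 0.08, and the interaction was -0.68 ± 0.11 (edgeR adjusted p = 0.00413). SBPASE (AT3G55800), sedoheptulose-1,7-bisphosphatase, was at 705, 658 and 627 CPM in untreated wild type, 650.0, 608 and 741 with volatiles, 398, 413 and 369.7 in untreated gp1-2 and 244, 231 and 240.3 in gp1-2 with volatiles. The wild-type groups overlapped fully (0.01 ± 0.09), the gp1-2 groups were apart (-0.72 ± 0.09), and the interaction was -0.73 ± 0.13 (edgeR adjusted p = 0.00567). HCEF1, the other bisphosphatase, had an interaction of -0.65 ± 0.13 (edgeR adjusted p = 0.0147).

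PRK (AT1G32060), which makes the CO2 acceptor, was at 1289.8, 1273 and 1235 CPM in untreated wild type, 865, 814 and 856 with volatiles, 778, 796 and 636 in untreated gp1-2 and 311, 325 and 339 in gp1-2 with volatiles. It fell in both genotypes with no overlap, and further in gp1-2, with an interaction of -0.60 ± 0.13 (edgeR adjusted p = 0.0191). The interactions of RCA (-0.63 ± 0.13) and AGT (-0.62 ± 0.13) had edgeR adjusted p of 0.0152 and 0.018, and those of CA1, CA2, HPR and CP12-1 lay between -0.56 and -0.70 with adjusted p of 0.0246 to 0.0429. CP12-2 had a value as large, -0.73 ± 0.20, that was not called (edgeR adjusted p = 0.0637). It was called with the replicate block (0.0399), without the filter (0.0434), with DESeq2 (0.0248), and on omitting untreated gp1-2 replicate 3 (0.0441) or gp1-2 volatiles replicate 3 (0.0372).

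The number of members called for the interaction depended on single libraries. It was 6 without wild-type volatiles replicate 3 or without gp1-2 volatiles replicate 1, 4 without untreated gp1-2 replicate 1 or without gp1-2 volatiles replicate 2, and 3 without untreated gp1-2 replicate 2. Over all tested genes, calls below 0 also fell, from 274 with all libraries to 178, 157, 140, 139 and 132 in these fits, in the order named. The calls of GAPB, SBPASE and HCEF1 were kept without each of the 12 libraries in turn. With replicates 1 and 2 of each group alone, a choice made after seeing that replicate 3 stood apart, 22 members were called, all below 0. In that fit 392 of 20757 tested genes were called below 0, against 274 of 20736 with all libraries. Among the 22 members were RBCS1A (-0.49, edgeR adjusted p = 0.00252) and RBCS3B (-0.43, edgeR adjusted p = 0.0133).

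Within gene pairs and families, shares of reads do not depend on the scaling of libraries, and they were compared with a two-sided exact permutation test stratified by the other factor (400 regroupings, smallest p = 0.005) adjusted over 18 tests. RBCS1A took 57.3%, 56.6% and 58.4% of the small subunit reads in untreated wild type, 70.1%, 69.6% and 70.2% with volatiles, 69.3%, 67.6% and 71.0% in untreated gp1-2 and 77.8%, 78.1% and 77.5% in gp1-2 with volatiles. Its share was higher by 9.83 percentage points in gp1-2 and by 10.5 points with volatiles (exact test, adjusted p = 0.0075 for each, 12 libraries). The RBCS2B share fell by 6.42 points with genotype, from a mean of 14.3% in untreated wild type to 6.4% in untreated gp1-2. The RBCS3B share fell by 7.86 points with volatiles, in gp1-2 from a mean of 22.3% to 14.9% (exact test, adjusted p = 0.0075 for each).

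Other pairs changed their makeup with one factor or with both. GAPA-2 took 34.7% ± 1.44 (SD, n = 3) of the reads of GAPA and GAPA-2 in untreated wild type, 42.2% ± 1.42 with volatiles, 26.8% ± 1.66 in untreated gp1-2 and 33.2% ± 1.93 in gp1-2 with volatiles. It was the one pair in which the factors moved the share in opposite directions, by -8.43 points in gp1-2 and by 7.02 points with volatiles (exact test, adjusted p = 0.0075 for each). CP12-2 went from 34.5% ± 0.562 to 17.9% ± 1.07 of CP12 reads with volatiles in wild type and from 34.3% ± 2.99 to 16.2% ± 2.32 in gp1-2, and its difference between genotypes of -0.919 points was not called (exact test, adjusted p = 0.466). CA1 showed the reverse pattern, with 81.6% ± 1.92 of the CA1 and CA2 reads in untreated wild type and 71.2% ± 0.791 in untreated gp1-2, a difference over both treatments of -10.5 points.

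The CA1 share changed by -1.03 points with volatiles, which was not called (exact test, adjusted p = 0.174). Without untreated wild-type replicate 2 it was -1.56 points and called (exact test, adjusted p = 0.0208). GLDP1 took 85.7% ± 0.699 of P-protein reads in untreated wild type and 73.5% ± 0.588 in gp1-2 with volatiles. With volatiles it went from 80.4% ± 1.1 to 73.5% ± 0.588 in gp1-2, with the groups apart, and in wild type to 84.6% ± 1.3, with the groups overlapping. Over both strata the share was 8.24 points lower in gp1-2, and 3.99 points lower with volatiles (exact test, adjusted p = 0.0208, and 0.0804 with the replicate number as a block). GOX1 gained 2.82 points in gp1-2, and its change of 0.743 points with volatiles was not called (exact test, adjusted p = 0.309). The aldolase share of FBA2 was not called for genotype (0.923 points) or for volatiles (0.192 points), and stood between 81.1% and 82.3% in the group means.

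**Figure D4:**
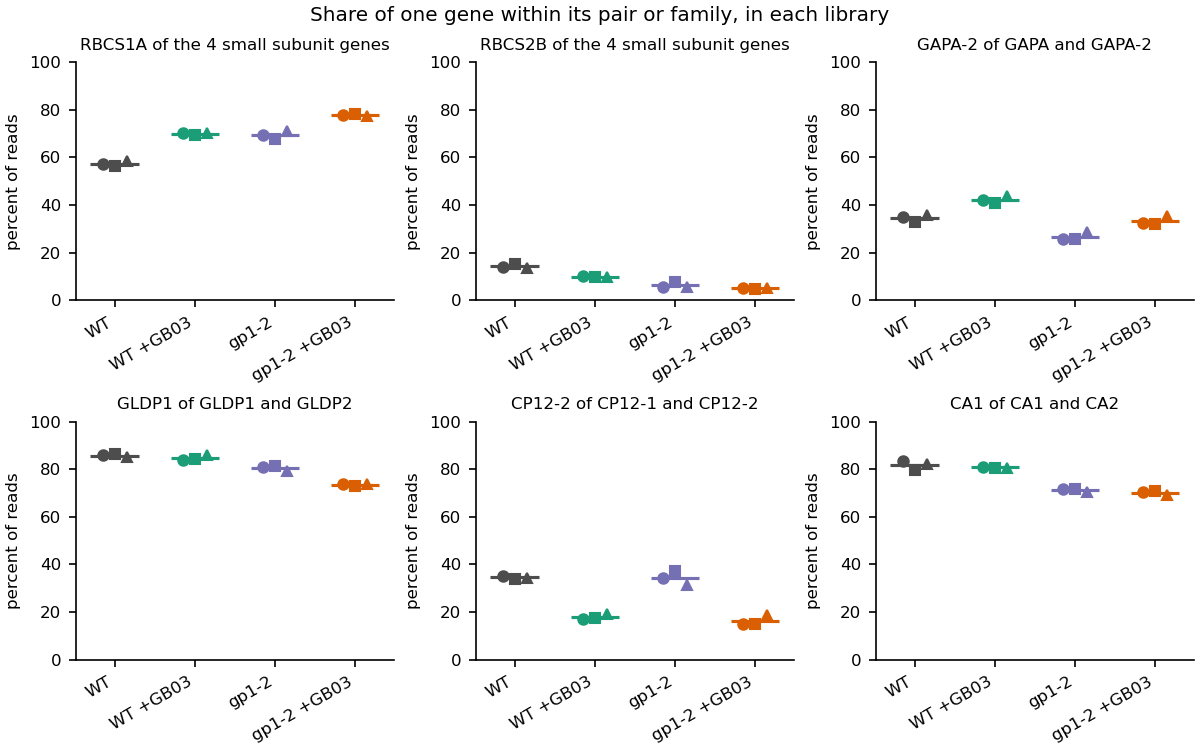
Percent of the reads of a gene pair or family that fell on 1 gene (y axis, 0 to 100) in each of the 12 libraries, with circle, square and triangle for replicates 1, 2 and 3 and a line at the group mean. RBCS1A rose from 57.4% to 77.8% across the group means, and CP12-2 moved with volatiles and CA1 with genotype.

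Genes around the pathway did not all move with it. With volatiles, 15.3% of all tested genes were called lower and 14.8% higher in wild type, and 17.6% and 14.7% in gp1-2. Of 6 other plastid Calvin cycle genes, 2 were called lower and 1 higher with volatiles in wild type, and 2 lower and 2 higher in gp1-2. AT3G48420, a haloacid dehalogenase-like hydrolase, was the lowest of them between genotypes with volatiles (-1.21 ± 0.09). The plastid gene ATCG00490 for the Rubisco large subunit was the highest (0.48 ± 0.54, not called), at 12.3, 13 and 5.35 CPM in untreated wild type, 14.6, 9.28 and 12.3 with volatiles, 5.57, 4.53 and 25 in untreated gp1-2 and 9.7, 10.8 and 29.5 in gp1-2 with volatiles. In gp1-2 its replicate 3 was above the other replicates in both groups, and RNA selection was not given in the sources used here, so its level is not comparable with the nuclear RBCS genes.

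Of 16 genes for Rubisco assembly and redox regulation, 7 were called lower and 2 higher with volatiles in wild type, and 10 lower and none higher in gp1-2. Over all tested genes the shares were 15.3% lower and 14.8% higher in wild type, and 17.6% and 14.7% in gp1-2. The Rubisco chaperone genes RbcX1 and RbcX2 marked the ends of that list between genotypes with volatiles, at -1.22 ± 0.10 and 0.10 ± 0.09. RbcX1 went from 81.6 ± 2.5 CPM (SD, n = 3) in untreated wild type to 19.2 ± 0.707 in gp1-2 with volatiles. The 2 higher calls were the chaperonin genes CPN60A and CPN20, each at 0.37 in wild type.

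Of 23 other photorespiratory genes, 7 were called lower and 5 higher with volatiles in wild type, and 11 lower and 4 higher in gp1-2. Here too all tested genes had 15.3% called lower and 14.8% higher in wild type, and 17.6% and 14.7% in gp1-2. Their medians of -0.12 and -0.33 lay nearer to 0 than the -0.64 and -0.96 of the 11 tested photorespiratory members. LrgB (AT1G32080), a chloroplast envelope protein gene, was the lowest between genotypes with volatiles (-1.34 ± 0.08), and HAOX1, a hydroxyacid oxidase gene, the highest, at 10 ± 1.03 CPM (SD, n = 3) in wild type and 19.8 ± 1.39 in gp1-2, both with volatiles (0.99 ± 0.11). For the 4 other carbonic anhydrases tested, 3 were called lower in wild type and 2 in gp1-2. The ends were BCA5 at -0.35 ± 0.11 and BCA3 at 1.40 ± 0.16 between genotypes with volatiles, the latter at levels of 1.8 to 6.19 CPM.

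Cytosolic counterparts of the Calvin cycle enzymes went both ways. In wild type, volatiles left 5 of 12 called higher and 3 lower, and in gp1-2 left 4 higher and 3 lower, with medians of 0.14 and 0.02. The shares over all tested genes were 14.8% higher and 15.3% lower in wild type, and 14.7% and 17.6% in gp1-2. GAPC1, the cytosolic glyceraldehyde-3-phosphate dehydrogenase, was at 888, 757 and 1018 CPM in untreated wild type and 1226, 1245 and 1424 with volatiles (0.55 ± 0.11), and in gp1-2 at 969, 1001 and 1201 and at 1705, 1602 and 1685 CPM (0.65 ± 0.11). The aldolase gene FBA5 went the other way, from 884, 891 and 953 CPM to 144, 148 and 159 in wild type (-2.60 ± 0.13) and from 374, 409 and 277 to 38.8, 30.7 and 35.6 in gp1-2 (-3.33 ± 0.14). In both genes the treated and untreated libraries were apart in each genotype.

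The 22 light-harvesting and photosystem genes differed from the members in wild type, where volatiles left 8 called higher and 2 lower with a median of 0.08. All tested genes had 14.8% called higher and 15.3% lower there. In gp1-2, 2 were called higher and 14 lower with a median of -0.48, where 14.7% and 17.6% of all tested genes were. Between genotypes the list was lower than the members, with a median of -1.0 in untreated seedlings and of -1.60 under volatiles, from LHCB2.3 at -3.28 ± 0.10 to LHB1B1 at -0.90 ± 0.12 in the latter. Of the GLK transcription factors, which are known to activate photosynthesis genes, GLK1 (listed as GPRI1) rose with volatiles in both genotypes (0.66 ± 0.13 and 0.74 ± 0.13). GLK2 fell in both (-0.83 ± 0.20 and -1.03 ± 0.20). GLK1 was lower in gp1-2 by -0.92 ± 0.13 without bacteria and -0.84 ± 0.13 with volatiles. GLK2 was at -0.38 (not called) and -0.57 (called) in these comparisons.

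**Figure D5:**
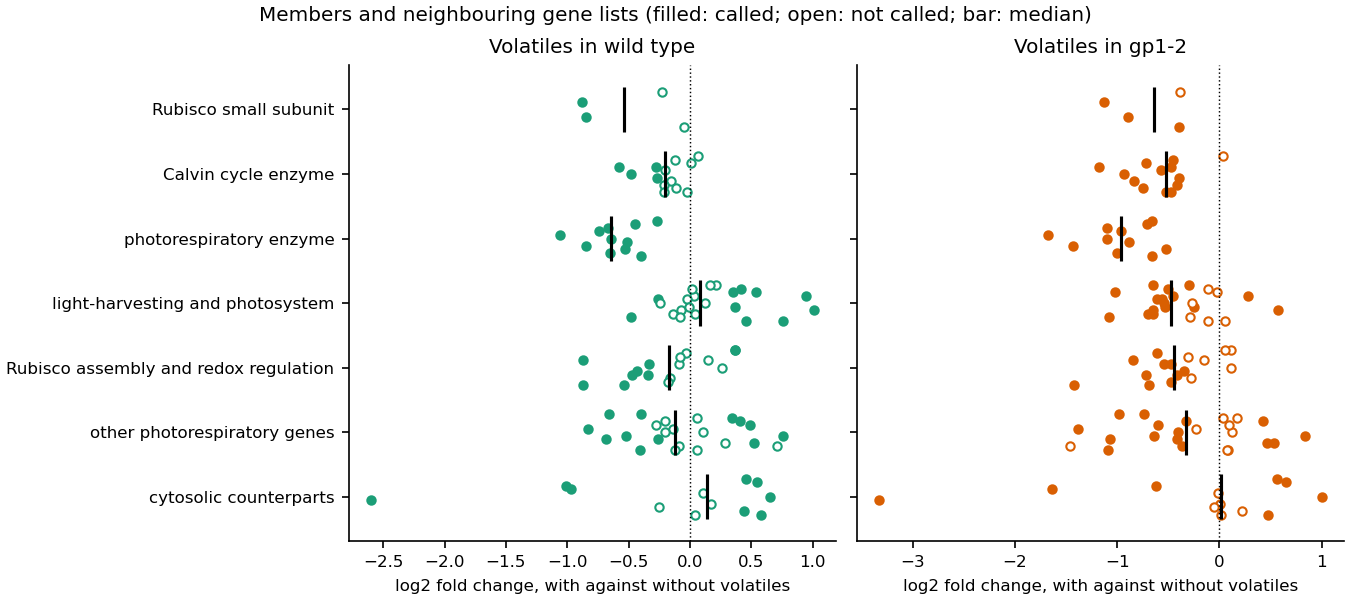
Log2 fold change with against without volatiles (x axis) for 3 roles of members and 4 neighbouring gene lists, in wild type (left) and gp1-2 (right), with 1 point a gene, filled where called, and a bar at the median. In wild type the photorespiratory enzymes sit at a median of -0.64 while the light-harvesting genes sit at 0.08.

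Markers of tissue and time of day moved with some of these comparisons. With volatiles, 3 of 11 shoot markers outside photosynthesis were called lower in wild type and 4 in gp1-2, with medians of -0.17 and -0.18. Of 16 root markers, 2 were called higher in each genotype, and 1 lower in gp1-2. Among all tested genes, 15.3% and 17.6% were called lower with volatiles in wild type and gp1-2, and 14.8% and 14.7% higher. Of the shoot markers, 7 were called lower in gp1-2 without bacteria and 9 with volatiles, where 17.2% and 23.3% of all tested genes were. The shoot marker medians were -0.44 and -0.43, and none of these markers was called higher. Their summed level ran from 789 to 1117 CPM in untreated wild type and from 786 to 854 when volatiles were present, and in gp1-2 from 556 to 583 and from 554 to 584 CPM. Of the root markers, 0 and 1 were called lower in gp1-2 in these comparisons and none higher, with summed levels of 244 to 292, 261 to 273, 231 to 255 and 224 to 269 CPM in the same order of groups. With volatiles, the ends of the shoot list between genotypes were ATML1 (-0.83 ± 0.10) and KAT1 (0.23 ± 0.11, not called), and those of the root list SHV2 (-0.37 ± 0.13) and WOX5 (0.41 ± 0.53, not called). The member medians between genotypes were -0.58 without bacteria, over a range of -2.04 to 0.22, and -0.97 with volatiles, over -2.09 to -0.00. The part of tissue makeup in the genotype and volatile values was not tested.

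Of 9 clock genes, 7 were called lower with volatiles in wild type and 6 in gp1-2, where 15.3% and 17.6% of all tested genes were. The clock gene medians were -0.73 and -0.51, and none of the 9 was called higher. Their summed level ran from 898 to 973 CPM in untreated wild type and from 469 to 585 when volatiles were present, and in gp1-2 from 747 to 897 and from 508 to 561 CPM. Between genotypes without bacteria none of the 9 was called by edgeR and 2 had an unadjusted p under 0.05. The ends of the list between genotypes with volatiles were GI (-0.33 ± 0.19, not called) and PRR9 (1.91 ± 0.46), both known clock regulators. The part of time of day in the volatile responses and in the genotype differences was not tested, and the labels give no hour of harvest.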

How the data were processed

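Read counts per gene for 12 libraries were deposited by the authors as 1 table of 33602 genes. Per the submitters' processing notes, Trimmomatic 0.36, HISAT2 2.1.0 and HTSeq 0.9.1 were used with genome build TAIR10. Settings for strand, reads with several alignments and RNA selection are not given in the sources used here, so counts of near-identical or overlapping genes are uncertain.

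The filter was filterByExpr of edgeR 4.0.16, which kept 20736 genes, and scaling was by TMM. Over all 12 libraries, a quasi-likelihood model of edgeR with 1 coefficient per group gave the 4 comparisons of 2 groups and their interaction, in R 4.3.3 with limma 3.58.1. Benjamini-Hochberg adjustment ran over all tested genes, with calls under 0.05. The SE is the log2 fold change divided by the square root of F. The common biological coefficient of variation was 0.109. Shares within gene families were compared by exact permutation tests over libraries. The edgeR steps were tested on simulated counts with genes changed alike in both gp1-2 groups, and only the genotype comparisons were scored. The volatile comparisons and the interaction were not scored, and the simulated libraries had no structure by replicate number.

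Members and lists were chosen with earlier results of these data known. Values in every library are given for the RBCS genes and RCA, for the lowest and highest member of each role between genotypes with volatiles, and for up to 6 members with the smallest adjusted p of the interaction. For the other lists the same 2 ends are named, and CPN60A and CPN20 were added after their values were seen. Symbols, gene positions and sequences came from RefSeq assembly TAIR10.1.

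The alternatives were other scalings (upper quartile, RLE, and TMM without the members and light-harvesting genes), no filter, DESeq2 1.42.0, limma-voom, 2 groups only, thinning to the shallowest library, a minimum log2 change of 1, a replicate block and leaving out each library. The numbers were taken to pair libraries where every same-numbered pair correlated above 0.1 in its deviations from the group means across genes. This held between untreated genotypes (0.158 to 0.279). The main test had no block for that comparison either, and the replicate block was fitted only as an alternative. The correlations were also above 0 but not all above 0.1 for volatiles in gp1-2 (0.0659 to 0.221) and between genotypes with volatiles (0.0442 to 0.308), and -0.0528 to 0.0707 for volatiles in wild type. Replicates 1 and 2 alone, and a second random thinning, were added after seeing the data. Every pair of replicates differed by more than counting noise. The series text calls the replicates biological. It does not say whether they came from separate plates, so p-values measure the spread between these libraries, which may in part be technical.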

Additional observations from a re-analysis of the deposited data

Results flagged for a closer look

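The response to volatiles differed between the genotypes by the interaction test for 10 members, each with a larger fall in gp1-2. The log2 differences between the responses were -0.73 for SBPASE, -0.68 for GAPB, -0.65 for HCEF1 and -0.60 for PRK among the Calvin cycle enzymes, and -0.63 for the activase RCA. Among photorespiratory enzymes they were -0.62 for AGT and -0.58 for HPR. The carbonic anhydrases CA1 and CA2 were at -0.69 and -0.70, and CP12-1 at -0.56.

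Of these calls, those of SBPASE, GAPB and HCEF1 were kept without each library in turn. The others were lost on leaving out any of 1 library (RCA), 3 (AGT), 4 (PRK), 7 (CA1 and CA2) or 8 (HPR and CP12-1), with edgeR adjusted p of 0.0501 to 0.115 there and values that stayed at -0.46 or below. The CA2 call was also lost under TMM scaling without the members and light-harvesting genes (-0.66, edgeR adjusted p = 0.053). Untreated gp1-2 replicate 2 was the library whose omission ended the call in each of these 7 genes.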

How the results depend on the processing

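Counts of members called lower stayed between 18 and 24 (volatiles in wild type), 29 and 32 (volatiles in gp1-2), 28 and 30 (genotype without bacteria) and 31 and 32 (genotype with volatiles) under every alternative except a minimum log2 change of 1. That minimum left 4, 10, 3 and 16 members lower, 0 for the interaction and 0 higher between untreated genotypes, and 1258, 1228, 1917, 2787 and 247 genes in all, by its own construction. The single higher member, GGT1, became 0 under upper-quartile and RLE scaling, TMM without the members and light-harvesting genes, no filter, 2 groups only and the second of 2 random thinnings, and 0 to 1 without single libraries. The GOX2 interaction was likewise called in the first thinning and not in the second. The interaction had 580 genes, 941 with DESeq2 and 1038 with the replicate block, and 329 to 615 without single libraries. Its member count was 3 to 12 without single libraries, 12 with the replicate block or DESeq2, and 22 with replicates 1 and 2 only. The replicate block gave 22, 32, 30 and 31 members lower in the 4 comparisons of 2 groups, adding EMB3119 (volatiles in wild type), RBCS1B (volatiles in gp1-2) and RPE (untreated genotypes), and in the interaction CP12-2 and GOX2, and ending the call of the GLDP1 share with volatiles (-3.99 points, adjusted p = 0.0804). Upper-quartile scaling moved the median of all genes between genotypes to -0.11 and -0.13, and the split of calls without bacteria from 4156 higher and 3567 lower to 3406 and 4769. TMM without the members ended the CA2 interaction call (-0.66, adjusted p = 0.053) and turned the interaction split from 306 higher and 274 lower to 360 and 210. No called member value changed sign. Uncalled values near 0 did. For volatiles in wild type these were RBCS1A (0.0294 with replicates 1 and 2; -0.14 to 0.0973 without single libraries), GAPA-2 (0.0208 with upper quartile; -0.122 to 0.0517), SBPASE (-0.014 with RLE, -0.0247 with TMM without the members, -0.0141 with DESeq2, -0.00645 with 2 groups, -0.116 with replicates 1 and 2; -0.0775 to 0.0678) and TIM (-0.0127 to 0.172). Between genotypes with volatiles GGT1 was at 0.023 (RLE), 0.0204 (TMM without the members), 0.00404 (no filter), 0.0231 (DESeq2), 0.0448 (2 groups), 0.0043 and 0.00193 (the 2 thinnings) and -0.0446 to 0.0258 without single libraries. In the interaction TIM was at 0.00883 (RLE), 0.0103 (TMM without the members), 0.00858 (DESeq2) and -0.133 to 0.0386, GLDP2 at -0.252 (replicates 1 and 2) and -0.159 to 0.126, RBCS1B at -0.467 to 0.0226 and RBCS2B at -0.156 to 0.108. The CA1 share changed with volatiles by -1.56 to -0.625 points without single libraries. The cause of these changes was not tested. The lowest depth was 11158051 counts. PGLP1 alone among the members was too low to test, with 0 to 3 counts in every library, the deepest included.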
